A study of Mus musculus with 2 samples.

Results

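The endothelin pathway and its targets in the lower jaw were followed through 10 genes. They were the ligands Edn1, Edn2 and Edn3, the processing enzyme Ece1, the receptors Ednra and Ednrb, and the transcription factors Hand1, Hand2, Gsc and Nkx2-3. They were chosen by symbol, coordinates are given on GRCm38, and all 10 had a row among the 42462 mouse gene rows that matched the annotation, 21474 of them protein-coding. The tissue was the facial prominence of B6NCrl mouse embryos at embryonic day 12.5, pooled from healthy male and female embryos, with no mutation or treatment given in the labels. RNA of 120 embryos made replicate 1 and RNA of 88 embryos made replicate 2, with 10 ng of RNA taken into each library for total RNA-seq. The 2 libraries form 1 group, so levels can be described but no condition can be compared and no test between groups is possible.

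Endothelins are small secreted peptides, cut first by furin-type proteases and then by an endothelin-converting enzyme, that act on receptors coupled to G proteins. In the first pharyngeal arch, Edn1 is made by surface epithelium, arch core mesoderm and endoderm, and neural crest cells receive it through Ednra. In mice this signal sets the lower-jaw identity of the arch through Dlx5, Dlx6 and Hand2, while Edn3 and Ednrb serve the melanocyte and enteric branches of the neural crest.

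Summed expected counts, the estimated reads per gene, were 27890681 in replicate 1 and 39969716 in replicate 2. Over 15698 protein-coding genes with at least 10 summed counts, the libraries differed by more than sampling noise, with a chi-square of 5.71 per degree of freedom, so they are not 1 library deposited under both labels. The labels give them as biological replicates. The 8 facial mesenchyme markers were all present at 1 TPM or more, with a summed level of 876 TPM in replicate 1 and 929 TPM in replicate 2. Msx1 was the highest of them at 336 TPM in replicate 1 and 325 TPM in replicate 2, and Alx4 was the lowest at 20.1 and 23.0 TPM in the same order. The tissue pools many cell types, so fewer cells of a type and less RNA per cell cannot be told apart.

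Of the 10 genes, 9 had at least 1 TPM (a share of all transcripts in the library, corrected for length) in both libraries, against 61.8% of all protein-coding genes. The exception was Edn2. In order of mean TPM the genes ran Gsc, Ednra, Ece1, Ednrb, Edn3, Hand2, Nkx2-3, Hand1, Edn1 and Edn2. Neighbours in this order whose libraries overlapped were Gsc and Ednra, Nkx2-3 and Hand1, and Hand1 and Edn1. The libraries of the other 6 neighbouring pairs were separate. For Ece1 and Ednrb this holds for the gene rows only. The full-length Ece1 transcript had 17.8 TPM in both libraries, below Ednrb at 25.3 TPM in replicate 1 and 25.8 TPM in replicate 2. The deposited uncertainty bounds of the Ece1 and Ednrb rows also overlapped in both libraries.

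**Figure D1:**
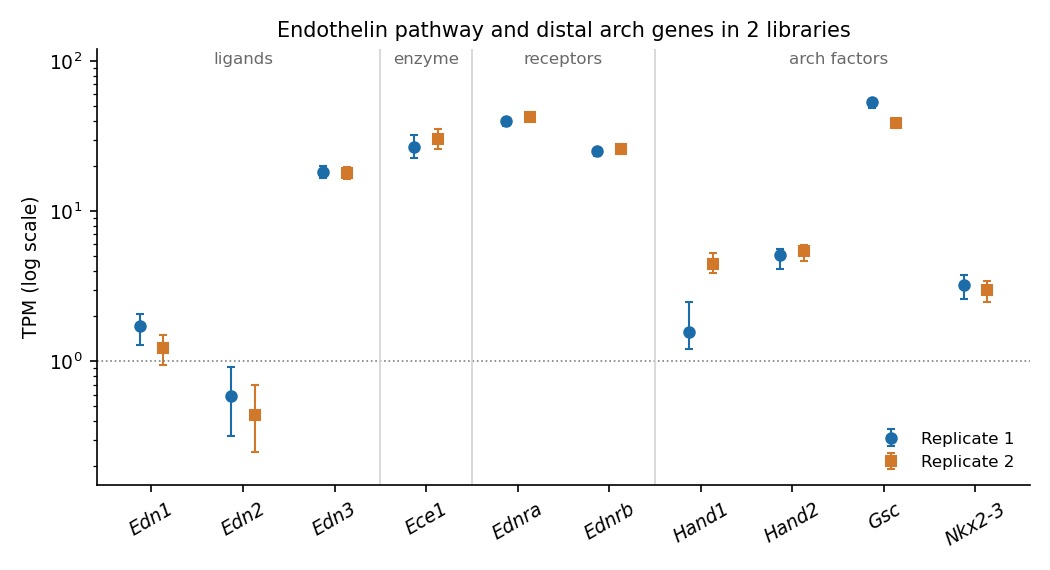
TPM of the 10 genes on a log axis, grouped by role, with circles for replicate 1 and squares for replicate 2. Bars are the uncertainty bounds on TPM in the authors' deposited tables, and the dotted line marks 1 TPM. The receptors, Ece1, Edn3 and Gsc lie above the other genes in both libraries, and Hand1 is the gene whose 2 points lie farthest apart.

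The 3 ligands share most of the coding stretch of the mature peptide, which lies in exon 2 of 5 in each gene. It is shown because ligands with such similar coding stretches differed widely in level. The stretches are on the plus strand of GRCm38, at chr13:42303649-42303711 for Edn1, chr4:120161951-120162013 for Edn2 and chr2:174761749-174761811 for Edn3. Capitals mark positions where the 3 ligands are not all identical, and the sequences come from the GENCODE M21 transcripts.
Edn1: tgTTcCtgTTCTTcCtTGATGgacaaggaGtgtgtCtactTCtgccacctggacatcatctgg
Edn2: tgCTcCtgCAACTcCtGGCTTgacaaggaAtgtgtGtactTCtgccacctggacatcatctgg
Edn3: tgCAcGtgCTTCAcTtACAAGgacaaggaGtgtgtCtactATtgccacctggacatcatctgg
Of the 63 bases, 45 were the same in all 3 ligands. Edn1 and Edn2 matched at 53 bases (84.1%), Edn1 and Edn3 at 50 bases (79.4%), and Edn2 and Edn3 at 48 bases (76.2%).

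Edn3 (chr2:174760619-174784042, plus strand), the ligand that acts on neural crest melanoblasts and enteric precursors through Ednrb, was the highest ligand. It had 18.3 TPM in replicate 1 and 17.9 TPM in replicate 2 (mean 18.1 ± 0.219, SD, n = 2), from 869 and 1158 counts. The libraries differed little, with a ratio of replicate 1 over replicate 2 of 1.02 and an exact 95% counting interval of 0.931 to 1.11. Intervals of this kind cover counting error only, because without molecular identifiers PCR copies count as separate reads.

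Edn1 (chr13:42301476-42307990, plus strand), the ligand of the mandibular arch, was far lower. It had 1.71 TPM in replicate 1 and 1.22 TPM in replicate 2 (mean 1.47 ± 0.346, SD, n = 2), from 67 and 68 counts. Replicate 1 was higher by a ratio of 1.40, but the interval of 0.985 to 1.99 reached 1. Edn1 stood at percentile 39.7 of protein-coding genes, where Edn3 stood at 66.4.

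Edn2 (chr4:120161206-120167360, plus strand), the ligand known from intestine and ovary in adult mice, was the lowest of the 10 genes. It had 0.590 TPM in replicate 1 and 0.440 TPM in replicate 2, from 14 and 15 counts, so it was detected but under 1 TPM in both. In replicate 1 its Poisson interval was 0.323 to 0.990 TPM, and in replicate 2 it was 0.246 to 0.726 TPM. Both lie under the Edn1 interval of the same library, which was 1.33 to 2.17 TPM in replicate 1 and 0.947 to 1.55 TPM in replicate 2.

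Within a library the ligands can be compared per length. The log2 ratio of Edn1 over Edn3 was −3.42 in replicate 1 and −3.88 in replicate 2, a mean of −3.65 ± 0.33 (SD, n = 2), so Edn3 was 12.5-fold higher than Edn1. The log2 ratio of Edn1 over Edn2 was 1.54 in replicate 1 and 1.47 in replicate 2, a mean of 1.50 ± 0.05 (SD, n = 2), and it was 0.70 when 1 TPM was added to both genes. Of 9 such ratios between pathway genes, 4 had a mean past 1 or −1 on the log2 scale with the same sign in both libraries, among them both ligand ratios.

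Edn3 was measured as 4 transcripts. The full-length Edn3-201 held most of the gene's level, with 15.0 TPM (82.0%) in replicate 1 and 13.5 TPM (75.2%) in replicate 2. Edn3-202, annotated as a retained intron, held 2.34 TPM (12.8%) in replicate 1 and 3.22 TPM (17.9%) in replicate 2. Edn1 and Edn2 had 1 transcript each. An antisense gene, Gm47118, covers 2694 bases of Edn1 on the opposite strand in GENCODE M21 and was not used here. No source gives the strand of the libraries, so for each overlap named here the reads of both strands cannot be told apart.

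The ligands have known sources in surface epithelium, endothelium and pharyngeal endoderm. Epithelial and endothelial markers were all present. Of 6 pharyngeal endoderm markers, 5 reached 1 TPM in both libraries. Foxa2, a defining endoderm factor, did not, at 0.82 TPM in replicate 1 and 0.84 TPM in replicate 2. The 7 epithelial markers all reached 1 TPM and had a summed level of 260 TPM in replicate 1 and 255 TPM in replicate 2, led by Krt5 at 60.8 and 66.5 TPM and lowest for Shh at 1.32 and 1.37 TPM. The 8 endothelial markers all reached 1 TPM and had a summed level of 237 TPM in replicate 1 and 230 TPM in replicate 2, led by Egfl7 at 83.6 and 80.5 TPM and lowest for Tek at 8.12 and 8.94 TPM. Neither the epithelial nor the endothelial list held a gene past 2-fold between the libraries. Of protein-coding genes with a mean of at least 1 TPM, 0.712% were past 2-fold. The part of these sources in the ligand levels was not tested.

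Ece1, the membrane protease that releases active endothelin from its precursor, is on the plus strand at chr4:137862237-137965229. Its gene row had 26.9 TPM in replicate 1 and 30.3 TPM in replicate 2 (mean 28.6 ± 2.36, SD, n = 2), from 1497 and 2131 counts. The row was slightly higher in replicate 2, with a ratio of 0.890 and an interval of 0.832 to 0.951. That interval rests on all reads of the row and does not cover how TPM was shared among transcripts. The deposited bounds of the row overlapped, at 22.6 to 32.2 TPM in replicate 1 and 25.8 to 35.4 TPM in replicate 2. The row is a sum over transcripts of unequal length. The full-length Ece1-201 had 17.8 TPM in both libraries, from 1465 and 2082 counts. Ece1-203, annotated as only 172 bases, had 7.06 TPM (26.2% of the gene) in replicate 1 and 10.5 TPM (34.7%) in replicate 2, from 9 and 19 counts. All 172 of its bases also lie in exons of Ece1-201, so few reads, divided by a short length, carried 26.2% and 34.7% of the row's TPM.

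Gm13012, an antisense gene inside Ece1, had 0.660 TPM in replicate 1 and 0.450 TPM in replicate 2, from 8 and 7 counts. The Ece1 row also holds Ece1-204, which begins at an internal start site. It had 2.08 TPM in replicate 1 and 1.94 TPM in replicate 2. The 250 bases before the start of Ece1-201 and the 250 bases before an internal RefSeq start site, a stretch that holds the first base of Ece1-204, are shown because they stand for the 2 start regions of these transcripts. They are RefSeq windows on GRCm38.p6, plus strand, at chr4:137861987-137862236 and chr4:137913308-137913557, and capitals mark every CG dinucleotide.
Ece1 first start site: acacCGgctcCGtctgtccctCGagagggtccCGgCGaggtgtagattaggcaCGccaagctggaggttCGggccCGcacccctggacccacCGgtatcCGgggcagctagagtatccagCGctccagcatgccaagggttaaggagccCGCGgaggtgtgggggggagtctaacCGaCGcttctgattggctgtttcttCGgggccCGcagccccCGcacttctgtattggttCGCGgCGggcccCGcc
Ece1 internal start site: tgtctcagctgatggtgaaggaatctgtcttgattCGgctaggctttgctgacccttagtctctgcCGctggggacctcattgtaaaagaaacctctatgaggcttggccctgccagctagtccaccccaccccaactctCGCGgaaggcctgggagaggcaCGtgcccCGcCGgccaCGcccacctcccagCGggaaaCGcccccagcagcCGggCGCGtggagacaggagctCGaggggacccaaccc
The first window held 22 CG dinucleotides and the internal window 14, where the median over 32851 RefSeq windows of that length was 6.

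Ece2, a related converting enzyme, had a gene row near that of Ece1, at 31.3 TPM in replicate 1 and 32.2 TPM in replicate 2. The log2 ratio of Ece1 over Ece2 was −0.22 in replicate 1 and −0.09 in replicate 2. However, 79.9% of the Ece2 row in replicate 1 and 80.2% in replicate 2 came from a transcript that GENCODE M21 places in the neighbouring gene Eef1akmt4, a lysine methyltransferase. The 6 transcripts that M21 keeps in Ece2 had a summed level of 5.91 TPM in replicate 1 and 6.15 TPM in replicate 2. Full-length Ece1 over those transcripts gave log2 ratios of 1.59 in replicate 1 and 1.53 in replicate 2, a mean of 1.56 ± 0.04 (SD, n = 2), or 2.95-fold. This second ratio was chosen after the values were seen.

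A list of 8 proteases, Ece2 among them, held enzymes that make or degrade endothelins or belong to their families. All 8 reached 1 TPM in both libraries, and none was past 2-fold. Mme, the membrane protease neprilysin that degrades endothelins, was the highest at 42.9 TPM in replicate 1 and 39.4 TPM in replicate 2. Pcsk6, a furin-type protease, was the lowest at 1.64 and 1.78 TPM. The list's median level was 11.8 TPM, where the median over protein-coding genes was 5.24 TPM.

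Ednra, the receptor that receives Edn1 in arch neural crest cells, was the highest of the ligands, Ece1 and the receptors. It lies on the minus strand at chr8:77663031-77724464 and had 39.8 TPM in replicate 1 and 42.8 TPM in replicate 2 (mean 41.3 ± 2.11, SD, n = 2), from 2424 and 3705 counts. Replicate 2 was slightly higher, with a ratio of 0.930 and an interval of 0.883 to 0.979.

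Ednrb, the receptor used by melanoblasts, enteric precursors and glia, lies on the minus strand at chr14:103814625-103844402. It had 25.3 TPM in replicate 1 and 25.8 TPM in replicate 2 (mean 25.5 ± 0.332, SD, n = 2), from 1691 and 2444 counts. The libraries did not separate, with a ratio of 0.982 and an interval of 0.922 to 1.04. Ednra exceeded Ednrb in both libraries, with log2 ratios of 0.65 in replicate 1 and 0.73 in replicate 2 (mean 0.69 ± 0.06, SD, n = 2), which is 1.61-fold and under 2-fold.

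The receptors were set against their main ligands. Ednra over Edn1 gave log2 ratios of 4.54 in replicate 1 and 5.13 in replicate 2, a mean of 4.84 ± 0.42 (SD, n = 2). Ednrb over Edn3 gave 0.47 in replicate 1 and 0.52 in replicate 2, a mean of 0.50 ± 0.04 (SD, n = 2). Edn1 RNA was thus 28.5-fold below that of Ednra, and Edn3 RNA was 1.41-fold below that of Ednrb. RNA levels across a mixed tissue do not give the amount of peptide.

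The receptors differed in their transcripts. Ednra-201 held 36.7 TPM (92.4%) in replicate 1 and 40.2 TPM (94.0%) in replicate 2. Ednrb was divided between a pair of protein-coding transcripts with different first exons. Ednrb-201 had 14.8 TPM (58.6%) in replicate 1 and 15.0 TPM (58.2%) in replicate 2, and Ednrb-202 had 10.5 TPM (41.4%) in replicate 1 and 10.8 TPM (41.9%) in replicate 2. The deposited bounds of the 2 Ednrb transcripts overlapped in replicate 1, at 10.7 to 17.0 TPM for Ednrb-201 and 7.61 to 13.7 TPM for Ednrb-202, and were separate in replicate 2, at 12.6 to 17.9 TPM and 7.41 to 12.5 TPM. The noncoding gene 4933431K23Rik spans all 61434 bases of Ednra on the opposite strand and had 0.670 TPM in replicate 1 and 1.05 TPM in replicate 2.

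Of the 5 genes with more than 1 annotated transcript, 4 had the same transcript above 50% of the gene's TPM in both libraries, against 69.1% of protein-coding genes with a mean of at least 1 TPM and more than 1 transcript. The exception was Hand1, for which the leading transcript changed between Hand1-201, at 59.6% in replicate 1 and 47.5% in replicate 2, and Hand1-203, at 40.4% and 52.5%. The deposited bounds of the 2 Hand1 transcripts overlapped in both libraries, at 1.04 to 3.95 TPM for Hand1-201 and 0.267 to 3.35 TPM for Hand1-203 in replicate 2, so the split was not resolved at this depth.

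**Figure D2:**
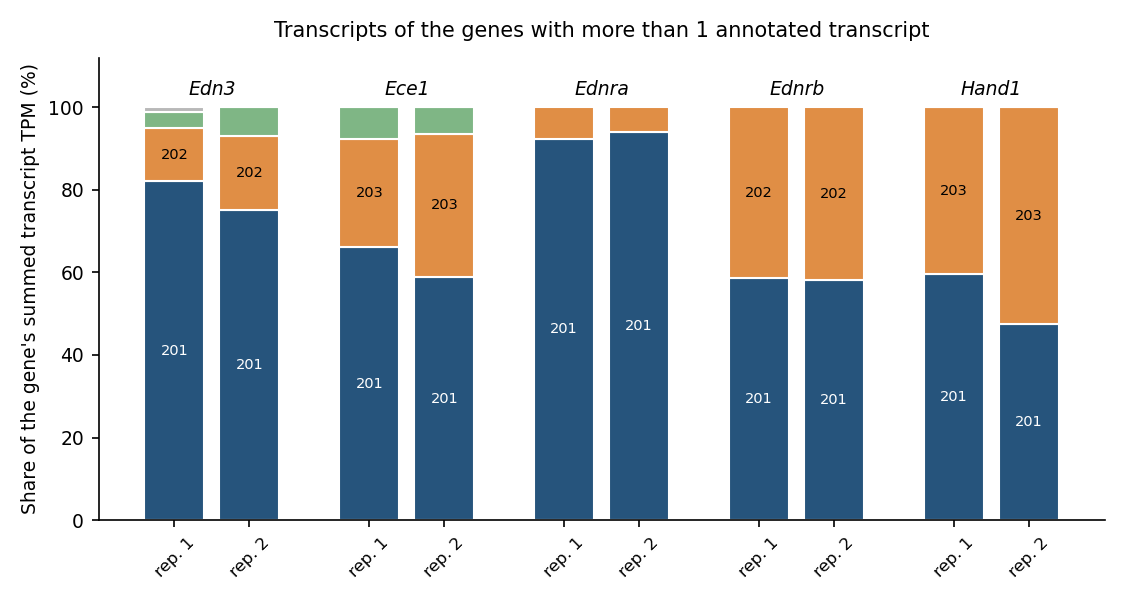
Share of each gene's summed transcript TPM, in percent, held by each transcript in replicate 1 and replicate 2 (bars side by side) for the 5 genes with more than 1 annotated transcript; numbers in the bars are transcript name endings. Ednra is carried mostly by 1 transcript, Ednrb by 2, and the largest share of Hand1 is 59.6% in replicate 1 and 52.5% in replicate 2.

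Ednrb is known from melanoblasts, on which Edn3 acts, and melanoblast markers were lower in replicate 1. Of 7 markers, 5 reached 1 TPM in both libraries, against 61.8% of protein-coding genes. The list had a summed level of 31.8 TPM in replicate 1 and 59.9 TPM in replicate 2. All 7 were lower in replicate 1, and of the 6 with a mean of at least 1 TPM, 3 were past 2-fold, against 1.9% of protein-coding genes with a mean of 1 to 10 TPM, where these 3 lie. Tyrp1, a melanin-synthesis enzyme, had 0.680 TPM in replicate 1 and 2.25 TPM in replicate 2. Tyr, tyrosinase, had 1.78 and 3.77 TPM, and Dct, another enzyme of that pathway, had 4.39 and 8.96 TPM. Pmel, a melanosome fibre protein, was the highest at 21.8 and 39.2 TPM, and Slc45a2, a melanosome transporter, was the lowest at 0.190 and 0.770 TPM. The 6 peripheral glia markers, another Ednrb-bearing lineage, all reached 1 TPM with none past 2-fold, and had a summed level of 55.7 TPM in replicate 1 and 53.0 TPM in replicate 2. Erbb3 was the highest of them at 17.3 and 17.2 TPM, and Cdh19 the lowest at 1.69 and 1.57 TPM. The melanoblast markers are pigment genes read in a mixed tissue, so which cells carried their difference was not tested. The part of melanoblasts and glia in the Ednrb level was not tested either.

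A list of 12 genes that endothelin receptors signal through held G proteins, phospholipase C genes and inositol trisphosphate receptors, which are calcium channels. Of the 12, 11 reached 1 TPM in both libraries, against 61.8% of protein-coding genes, and none was past 2-fold. Gnai3, an inhibitory G protein subunit, was the highest at 163 TPM in replicate 1 and 171 TPM in replicate 2. Plcb2, a phospholipase C best known from blood cells, was the lowest at 0.390 and 0.320 TPM.

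Gsc, the homeobox factor needed for lower-jaw, middle-ear and tympanic ring structures in mice, had the highest mean of the 10 genes, with Ednra above it in replicate 2. It lies on the minus strand at chr12:104471209-104473330 and had 53.7 TPM in replicate 1 and 38.9 TPM in replicate 2 (mean 46.3 ± 10.4, SD, n = 2), from 1096 and 1127 counts. Replicate 1 was higher, with a ratio of 1.38 and an interval of 1.27 to 1.50 that left out 1.

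Hand2, the basic helix-loop-helix factor that acts downstream of Ednra in the distal arch, lies on the plus strand at chr8:57320983-57324633. It had 5.08 TPM in replicate 1 and 5.45 TPM in replicate 2 (mean 5.26 ± 0.262, SD, n = 2), from 190 and 288 counts. The libraries did not separate, with a ratio of 0.932 and an interval of 0.772 to 1.12. Gsc exceeded Hand2 in both libraries, with log2 ratios of 3.40 in replicate 1 and 2.84 in replicate 2 (mean 3.12 ± 0.40, SD, n = 2), or 8.68-fold.

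Hand2os1, a long noncoding RNA also called Upperhand, starts close upstream of Hand2 and runs away from it on the minus strand. Its gene span in GENCODE M21 covers 3251 bases of the Hand2 gene, but the 8 transcripts measured under that name all start upstream of Hand2 and do not overlap it. Hand2os1 had 35.2 TPM in replicate 1 and 40.0 TPM in replicate 2 (mean 37.6 ± 3.41, SD, n = 2), from 338 and 554 counts. Its log2 ratio over Hand2 was 2.79 in replicate 1 and 2.88 in replicate 2, a mean of 2.83 ± 0.06 (SD, n = 2), or 7.13-fold, a comparison added after the values were seen. In counts, which are not divided by length, Hand2os1 was less than 2-fold above Hand2 in both libraries. Hand2os1 had 338 counts in replicate 1 and 554 in replicate 2, against 190 and 288 for Hand2. The Hand2os1 transcripts are 486 to 877 bases long, and the Hand2 transcript is 2235 bases long.

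The leading Hand2os1 transcript, Hand2os1-206, had 8.99 TPM in replicate 1 and 12.2 TPM in replicate 2 and starts 216 bases before Hand2. The 250 bases before the Hand2 start are shown because 5 of 8 measured Hand2os1 transcripts begin inside the RefSeq promoter window of Hand2. The sequence is from RefSeq on GRCm38.p6, plus strand, at chr8:57320733-57320982, and capitals mark the bases from the start of Hand2os1-206 up to the base before Hand2.
Hand2 upstream: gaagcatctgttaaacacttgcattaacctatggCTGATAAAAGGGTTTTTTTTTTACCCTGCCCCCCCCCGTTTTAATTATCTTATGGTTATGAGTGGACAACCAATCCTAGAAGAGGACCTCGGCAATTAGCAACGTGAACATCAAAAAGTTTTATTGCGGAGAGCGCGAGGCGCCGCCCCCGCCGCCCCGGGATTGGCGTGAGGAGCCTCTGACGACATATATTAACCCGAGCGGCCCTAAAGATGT
Another antisense row of the older annotation, which GENCODE M21 merges into Hand2os1, had 1.59 TPM in replicate 1 and 3.17 TPM in replicate 2, from 5.36 and 14.7 counts. The counts of Hand2 were not whole numbers, so some of its reads were shared out with another row.

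Nkx2-3, a homeobox factor of pharyngeal endoderm and gut mesenchyme, lies on the plus strand at chr19:43612325-43615892. It had 3.24 TPM in replicate 1 and 2.99 TPM in replicate 2 (mean 3.12 ± 0.177, SD, n = 2), from 114 and 149 counts. The libraries did not separate, with a ratio of 1.08 and an interval of 0.842 to 1.39. Its log2 ratio over Hand2 was −0.65 in replicate 1 and −0.87 in replicate 2, under the 2-fold threshold. Of 6 pharyngeal endoderm markers, 5 reached 1 TPM in both libraries, against 61.8% of protein-coding genes. The 6 had a summed level of 46.5 TPM in replicate 1 and 43.3 TPM in replicate 2. Pax1 was the highest at 16.0 and 19.9 TPM, and Foxa2, a defining endoderm factor, was the lowest at 0.820 and 0.840 TPM. Of the 5 with a mean of at least 1 TPM, 1 was past 2-fold, Nkx2-1, a thyroid and lung factor. The share was 1.9% of protein-coding genes with a mean of 1 to 10 TPM, where Nkx2-1 lies. Nkx2-1 had 3.66 TPM in replicate 1 and 1.34 TPM in replicate 2.

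Hand1, the relative of Hand2 that marks the most distal arch as well as heart and sympathetic cells, differed most between the libraries. It lies on the minus strand at chr11:57828705-57832818 and had 1.56 TPM in replicate 1 and 4.44 TPM in replicate 2 (mean 3.00 ± 2.04, SD, n = 2), from 48 and 193 counts. Replicate 1 was lower, with a ratio of 0.351, an interval of 0.251 to 0.484, and deposited bounds of 1.22 to 2.50 TPM in replicate 1 against 3.85 to 5.30 TPM in replicate 2. The log2 difference, with 0.1 TPM added to both values, was −1.45.

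Hand1 was the 1 gene of 9 with a mean of at least 1 TPM that was past 2-fold between the libraries, against 0.712% of 13490 protein-coding genes with such a mean. At 1 to 10 TPM, where Hand1 lies, the share was 1.9%, and at 10 TPM or more it was 0.143%. With 1 library on each side, this compares 2 libraries and has no replicate check. The log2 ratio of Hand2 over Hand1 moved with it, at 1.70 in replicate 1 and 0.30 in replicate 2 (mean 1.00 ± 1.00, SD, n = 2). The mean fell just short of the 2-fold threshold, and it was past that threshold in replicate 1 and not in replicate 2.

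**Figure D3:**
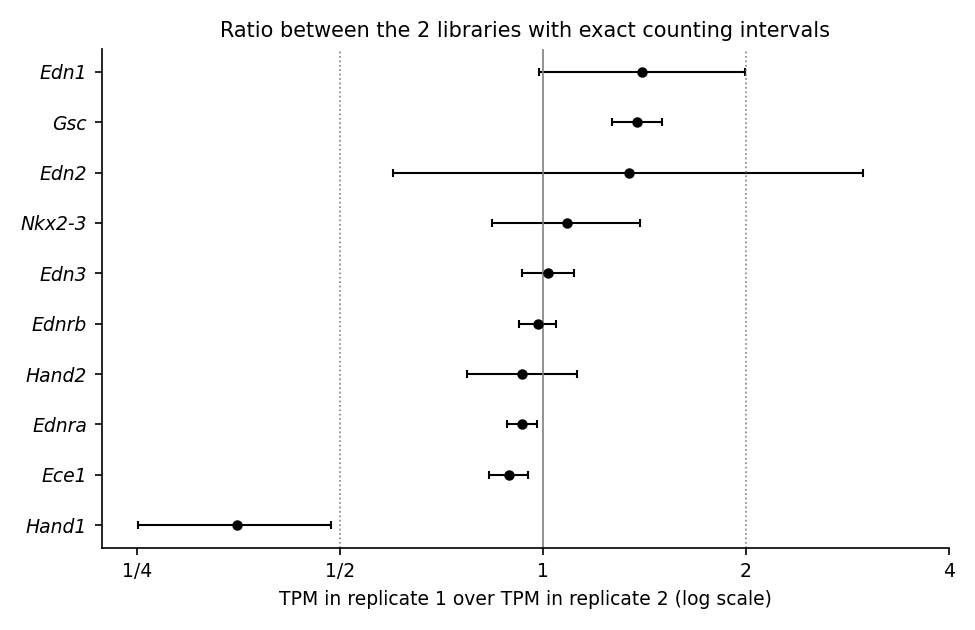
TPM in replicate 1 over TPM in replicate 2 for the 10 genes on a log axis, with exact 95% counting intervals, ordered by ratio; dotted lines mark 2-fold. Hand1, at 0.351, is the gene whose interval lies beyond 2-fold, while the intervals of Gsc, Ednra and Ece1 leave out 1 but stay inside 2-fold. For Ece1 the interval does not cover how TPM was shared among transcripts, and the deposited bounds of the 2 libraries overlap.

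Hand1 is also expressed in heart muscle and sympathoadrenal cells, so their markers were read beside it. Of 16 cardiomyocyte markers, 7 reached 1 TPM in both libraries, against 61.8% of protein-coding genes. The list had a summed level of 92.3 TPM in replicate 1 and 101 TPM in replicate 2. Sln, a calcium pump regulator of heart atria and skeletal muscle, was the highest at 25.0 and 31.7 TPM, and Nppb, a heart hormone gene, was the lowest at 0.0800 and 0.0600 TPM. Among the 11 with a mean of at least 1 TPM, 2 were past 2-fold, against 0.712% of protein-coding genes with such a mean. At a mean of 1 to 10 TPM, where these 2 genes lie, the share was 1.9%. Both were higher in replicate 1 and so opposite to Hand1, but the median log2 difference of the 11 was −0.25, on the side of Hand1. By value, 9 of the 16 were higher in replicate 1 and 7 in replicate 2. Nppa, the atrial hormone gene, had 8.74 TPM in replicate 1 and 0.530 TPM in replicate 2, and Myl2, a ventricular myosin light chain, had 1.97 and 0.420 TPM.

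Of 6 sympathoadrenal markers, 3 reached 1 TPM in both libraries, against 61.8% of protein-coding genes. The list had a summed level of 35.1 TPM in replicate 1 and 32.2 TPM in replicate 2. Gata3, which surface epithelium also expresses, was the highest at 19.6 and 18.6 TPM and made up most of that sum. Of the 4 with a mean of at least 1 TPM, 1 was past 2-fold, lower in replicate 1 as Hand1 was. The share was 0.712% of protein-coding genes with such a mean, 1.9% at 1 to 10 TPM and 0.143% at 10 TPM or more. The median log2 difference of the 4 was 0.22, on the other side from Hand1. By value, 3 of the 6 were higher in replicate 1 and 3 in replicate 2. Phox2a, an autonomic neuron factor and the lowest of the list, was listed at 0 in replicate 1 and had 0.400 TPM, from 15 counts, in replicate 2. The part of these cells in the Hand1 difference was not tested. The protein-coding genes whose levels in the 2 libraries lay nearest to those of Hand1 were Olig1, at 1.61 TPM in replicate 1 and 4.13 TPM in replicate 2, Cga, at 1.62 and 3.84 TPM, and Hist1h4k, at 1.75 and 3.90 TPM. Their distances in log2 units were 0.11, 0.21 and 0.24.

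Other arch factors that depend on endothelin signalling in mice were mostly higher in replicate 1, 6 of 8 by value. All 8 reached 1 TPM in both libraries, and they had a summed level of 454 TPM in replicate 1 and 286 TPM in replicate 2. Barx1, a homeobox factor of molar and jaw mesenchyme, was the highest and was just past 2-fold, at 177 TPM in replicate 1 and 88.5 TPM in replicate 2. Posterior mean TPM, TPM without spike-ins and a pseudocount of 1 TPM each put Barx1 under 2-fold. Nkx3-2, a jaw joint factor, was the lowest at 4.99 and 3.71 TPM. Dlx5 and Dlx6, the pair through which Ednra signalling acts on Hand2, were chosen after their values were seen. Dlx5 had 84.4 TPM in replicate 1 and 57.1 TPM in replicate 2, and Dlx6 had 11.2 and 6.60 TPM. The median log2 difference of the list was 0.49, where that of all 13490 genes was −0.0041. Gsc, at 0.46, lay on the same side, and Hand1, at −1.45, lay on the other. Hand2, at −0.10, did not separate between the libraries.

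Factors of the proximal arch that oppose or border endothelin signalling were present as well. All 7 reached 1 TPM with none past 2-fold, and their median log2 difference was −0.04. Pou3f3, a marker of the upper jaw domain, was the lowest at 8.57 TPM in replicate 1 and 9.97 TPM in replicate 2. The 5 helix-loop-helix partners of Hand proteins also all reached 1 TPM with none past 2-fold, with a median level of 127 TPM. Tcf3, a broadly expressed partner, was the highest at 210 TPM in replicate 1 and 214 TPM in replicate 2, and Twist2 the lowest at 53.3 and 53.6 TPM. Each of the 5 partners was above Hand1 and Hand2 in both libraries.

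Across the 5 pathway lists, 39 of 40 genes reached 1 TPM in both libraries, against 61.8% of protein-coding genes, and 1 of the 39 with a mean of at least 1 TPM was past 2-fold, against 0.712%. These lists were drawn up for this tissue, so their share above the background describes the choice as well as the data.

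**Figure D4:**
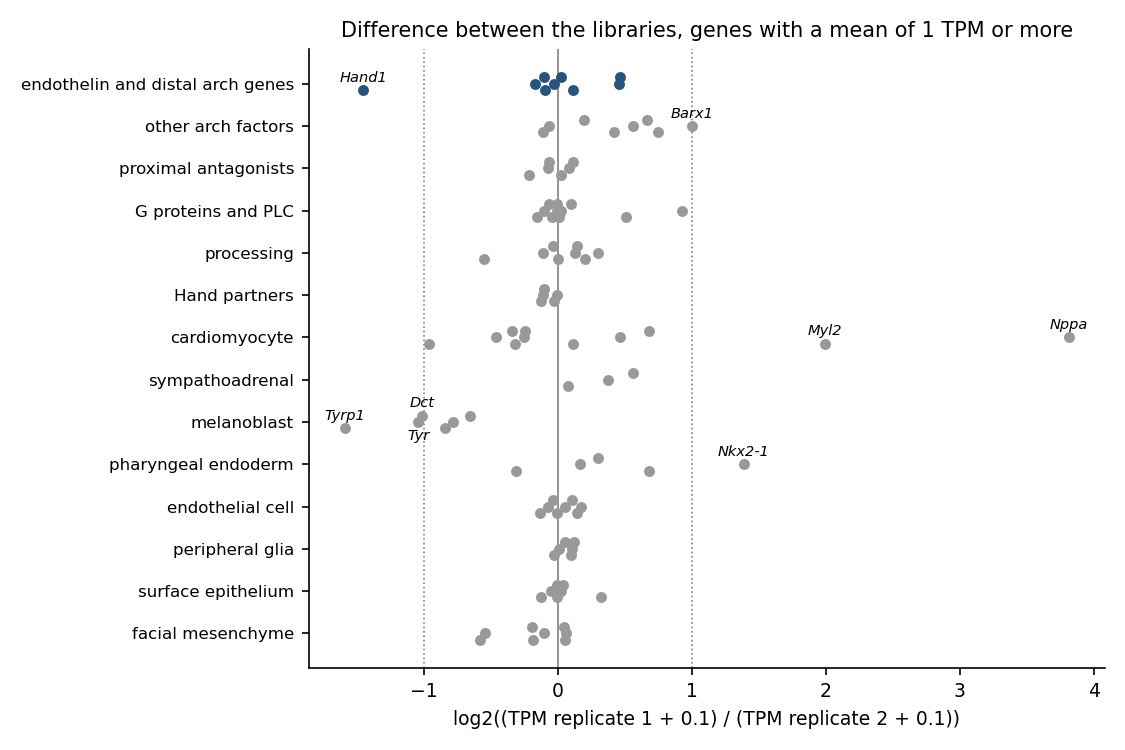
Log2 difference of TPM, replicate 1 over replicate 2 with 0.1 TPM added, for the listed genes with a mean of at least 1 TPM, by list, except 2 genes not reported here; dotted lines mark 2-fold and named genes lie beyond it. Hand1, at −1.45, stands apart from the other endothelin and distal arch genes, and the 6 melanoblast markers drawn all lie on the side of replicate 2. The line for G proteins and phospholipase C also holds the inositol trisphosphate receptors.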

How the data were processed

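Total RNA was extracted with a mirVana kit and RNA above a size limit was kept, per the labels, with spike-ins added. Replicates are separate embryo pools with biological replicate numbers. Reads were aligned to mm10 with GENCODE M4, per the deposited notes. No source used here gives the aligner, the quantifier or the library strand. The deposited expected count is an estimate that shares out reads matching several genes, per the file headers. The deposited TPM, its posterior mean and bounds, and the deposited FPKM are normalized for length and depth by the authors, with spike-ins (6.88% of TPM in replicate 1 and 7.57% in replicate 2) inside the total.

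Gene names and coordinates came from GENCODE M21 on GRCm38. A 2-fold difference between libraries means a log2 difference of TPM + 0.1 past 1 or −1 in genes with a mean of at least 1 TPM. Counting intervals are exact (Clopper-Pearson) at 95%. TMM and median-of-ratios factors came from edgeR 4.0.16 in R 4.3.3, on counts rounded to whole numbers. Other steps used Python 3.11.15, numpy 2.4.6, pandas 2.3.3, scipy 1.17.1 and matplotlib 3.10.9. Only the 2-fold call between libraries was tested on simulated data. The simulated counts had Poisson noise alone, which is less than the noise between these libraries. RefSeq promoter windows (250 bases before to 50 after a start site) were found for 9 of the 10 genes, not for Hand1.

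The genes and lists were chosen with earlier results of these data known. Named genes are the 10, the highest, the lowest and those past 2-fold of each list, overlapping genes, transcripts with at least 10% of a gene's TPM, and the 3 genes nearest in level to a gene past 2-fold. Of the listed genes, 2 count in their lists but are not reported here by name or value. Alternatives covered other units, scalings, pseudocounts, minimums and each library alone.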

Additional observations from a re-analysis of the deposited data

How the results depend on the processing

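Over 14 results and 80 alternatives, 15 values moved by more than the spread between the libraries or, for counts, by more than 1.5 times, and no ratio or difference past 2-fold changed sign. For a ratio, each library alone could not count as a move, because it always lies within that spread of the mean. Nor could it reverse a ratio past 2-fold, which needs the same sign in both libraries. The ratio of Ece1 over Ece2, −0.15 and not past 2-fold, did change sign in counts and with full-length Ece1. The cause of the moves was not tested beyond what each alternative's construction shows. With a minimum mean of 10 TPM, which leaves Hand1 out, 0 of the 10 genes were past 2-fold. Barx1, at the 2-fold limit, was lost with posterior mean TPM, with TPM rescaled without spike-ins and with a pseudocount of 1 TPM, leaving 0 pathway genes past 2-fold in each. In counts not divided by length, the log2 ratios were 0.56 for Ednra over Ednrb, 2.22 for Edn1 over Edn2, 5.47 for Ednra over Edn1, 1.02 for Ednrb over Edn3 and 1.10 for Ece1 over Ece2 (both now past 1), and 2.25 for Gsc over Hand2. With 1 TPM added, they were −2.96 for Edn1 over Edn3, 0.70 for Edn1 over Edn2 (no longer past 1) and 4.11 for Ednra over Edn1. Posterior mean TPM gave 1.43 for Edn1 over Edn2. Full-length Ece1 over the transcripts kept in Ece2, chosen after seeing the data, gave 1.56. Hand2 over Hand1 ran from 0.30 without replicate 1 to 1.70 without replicate 2, and was 1.28 in counts. The log2 difference of Hand1 kept its sign under every scaling and pseudocount tried, from −1.50 to −1.09. At a minimum of 2 TPM, or in FPKM, 7 of the 10 genes passed in both libraries. Depth is low for Edn2, with 14 and 15 counts, for Edn1, with 67 and 68, and for Hand1 in replicate 1, with 48. No paired analysis was possible because there is 1 group.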
